A study of Mus musculus with 4 samples.

Results

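BRDT islands that lay close to, or over, a BRDT island of the other germ cell stage without coinciding with it are described here; they are called offset islands below. BRDT was mapped by ChIP-seq in mouse pachytene spermatocytes and round spermatids, and an island is a stretch of the genome that the caller SICER marked as enriched in 1 library. An island was taken as offset when an island of the other stage overlapped it, or lay with fewer than 10000 bp between them, and when no island of the other stage overlapped it by at least 50% of the width of both. On chromosomes 1 to 19, 719 of 5424 pachytene islands and 788 of 5558 round spermatid islands met this rule, 1507 of 10982 in all. They made up 13.3% of the pachytene list (95% interval 12.4 to 14.2, exact Clopper-Pearson) and 14.2% of the round spermatid list (95% interval 13.3 to 15.1). The islands were chosen on their positions in both lists, so their counts, overlaps, gaps and widths are a description and carry no test.

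BRDT is a testis-specific member of the BET family, whose paired bromodomains bind acetylated lysines on histones. It appears in meiotic spermatocytes and is still present in spermatids, where it is known for a role in the remodelling of acetylated chromatin before histones are replaced. Pachytene spermatocytes are meiotic cells whose homologous chromosomes are fully paired, and round spermatids are the haploid cells that follow the meiotic divisions. Enrichment over broad stretches is called as islands by joining neighbouring windows, so an island has 2 borders and a width but no summit. A border marks where windows ceased to pass the caller's threshold, and it is not an edge of bound protein.

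All material came from wild-type 129 Sv/Ev mice. The pachytene library was made from a filtered suspension of tubule cells of mice aged 18 days, which per the labels also held spermatogonia, leptotene and zygotene spermatocytes and some Sertoli cells. The round spermatid library was made from cells of 7 adult mice, separated by sedimentation in a BSA gradient to a purity of at least 90%. Each stage had 1 library with an anti-BRDT antibody and 1 with IgG, and only the BRDT lists were analysed here. Stage, mouse age and purification cannot be told apart in this design, and neither can BRDT in fewer cells and less BRDT per cell. The identity of the cells was not checked, since the lists hold positions on mm8 without gene names or levels. No gene or sequence is given, because no annotation or genome of that build was used here. Read depth is unknown, there are no replicates, and the intervals take in nothing but the counting error of the islands.

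The offset islands fell into a class that overlapped the other stage in part and a somewhat larger class that stood apart across a gap of under 10 kb. Partial overlap accounted for 341 pachytene islands (6.29% of the list) and 356 round spermatid islands (6.41%). A gap separated 378 pachytene islands (6.97%) and 432 round spermatid islands (7.77%) from the nearest island of the other stage. The gap limit sets the size of this class, which was the smaller at a limit of 5000 bp (197 and 229 islands). For comparison, 601 islands of each list matched, which is 11.1% of the pachytene and 10.8% of the round spermatid list. The other stage had nothing within 10 kb of a further 4104 pachytene islands (75.7%) and 4169 round spermatid islands (75%). Offset islands thus outnumbered matched ones in both lists at these limits. With a gap limit of 5000 bp they numbered 538 and 585 and no longer did, nor with matching at 25% of both widths (452 and 526 offset against 868 and 863 matched). Their summed width was 2.34 Mb of the pachytene list (14.6% of its width) and 3.30 Mb of the round spermatid list (16.5%).

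Most partly overlapping pairs were nested, a narrow island inside a wide one, and the others were shifted against each other. The 341 and 356 islands took part in 367 overlapping pairs that did not match, out of 968 overlapping pairs in all. An island that was matched elsewhere, and so was not offset, belonged to 12 of the 367. In 236 of the 367 (64.3%, 95% interval 59.2 to 69.2) one island lay wholly inside the other. The remaining 131 pairs (35.7%) were staggered, each island reaching past the other at one end. The inner island was the pachytene one in 176 pairs and the round spermatid one in 60 pairs. Among the 601 matched pairs it was the pachytene one in 251 (41.8%) and the round spermatid one in 135 (22.5%). Another 196 matched pairs (32.6%) were staggered, and 19 had identical borders. Nesting was thus about as common among matched pairs, and it was not particular to offset islands. Round spermatid islands are wider over the whole list (median 3200 bp against 2600 bp), and the part of this difference in the direction of nesting was not tested. Among the widest islands of each list alone, 33 unmatched pairs were nested and 52 staggered, and with matching at 25% of both widths the counts were 50 and 47.

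**Figure D1:**
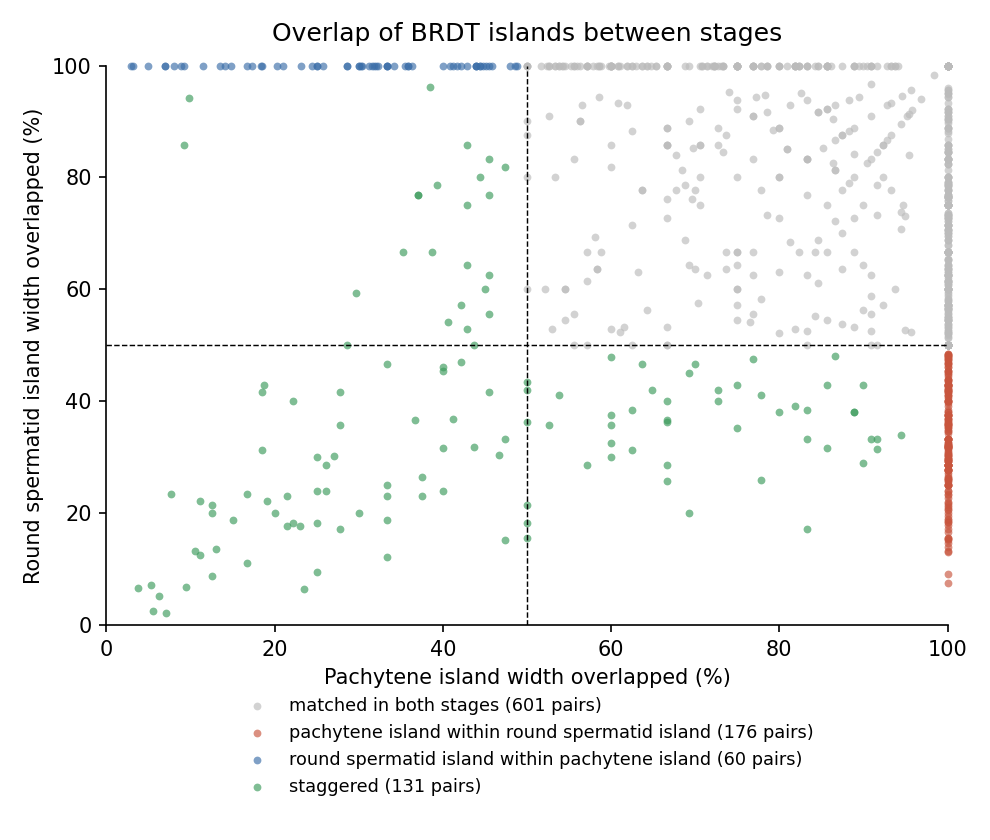
Each point is 1 of 968 overlapping pairs of BRDT islands, placed by the percentage of the pachytene island's width (horizontal) and of the round spermatid island's width (vertical) that the overlap covers; dashed lines mark 50%. The 176 pachytene islands inside a round spermatid island lie along the right edge, the 60 round spermatid islands inside a pachytene island along the top edge, and the 131 staggered pairs inside the plot.

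When the pachytene island was the inner one, it was narrow for its list and its partner was wide. These pachytene islands had a median width of 1500 bp (quartiles 1200 and 2000 bp). The round spermatid islands around them had a median width of 5000 bp (quartiles 3600 and 6450 bp), a median of 3.07 times as wide within the pair. In the opposite case the inner round spermatid islands had a median width of 2200 bp (quartiles 1800 and 2850 bp) and the pachytene islands around them 7000 bp (quartiles 5000 and 15600 bp, each wide island counted once for every island inside it). The ratio within these pairs had a median of 3.18 and reached 33.8. The rule itself asks for unequal widths in a nested pair, since the inner island must cover less than 50% of the outer one.

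Inner islands sat at no single place within the outer ones. The longer of the 2 stretches left uncovered had a median of 2800 bp. In 43 of 236 nested pairs (18.2%) the islands shared a start or an end, and in 193 the outer island reached past the inner one on both sides. All borders lie in steps of 200 bp, so a shared border is known only to that step. The shorter uncovered stretch made up a median of 20.6% of the uncovered width, where 50% stands for an inner island exactly in the middle. It made up under 10% in 73 pairs (30.9%) and at least 40% in 45 pairs (19.1%). Each step of 10% between these held 16.1 to 17.8% of the pairs. Places near a border were thus the most frequent, and central places were about as frequent as those between.

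Staggered pairs were shifted towards higher and lower coordinates about equally often. The round spermatid island lay at the higher coordinate in 68 of 131 pairs (51.9%, 95% interval 43.0 to 60.7). The midpoints were a median of 2200 bp apart (quartiles 1500 and 3200 bp), and the overlap had a median of 1200 bp. The pachytene island of these pairs had a median width of 3200 bp and its partner 3600 bp, against 2600 and 3200 bp over the lists. In 73 of the 131 pairs (55.7%) the overlap still covered at least 50% of one of the islands. The smallest overlap was 200 bp, which is the step of the grid on which all borders lie.

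Many overlapping pairs lay close to the 50% limit, on both sides of it. Measured as a share of the wider island, the overlap was under 10% in 22 pairs, 10 to under 20% in 48, 20 to under 30% in 83, 30 to under 40% in 109 and 40 to under 50% in 105. Just past the limit, 157 pairs had 50 to under 60%, and 40 of these stood at exactly 50%. Counts then fell to 138, 137, 106 and 63 over the remaining steps of 10%. The unmatched pair closest to the limit lay on chromosome 14. Its pachytene island from 22921401 to 22930000 (8600 bp) contained a round spermatid island from 22921801 to 22926000 (4200 bp), 48.8% of the wider width. Among the pairs at 50%, the widest was also on chromosome 14, with a pachytene island from 60479401 to 60483200 inside a round spermatid island from 60478001 to 60485600.

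**Figure D2:**
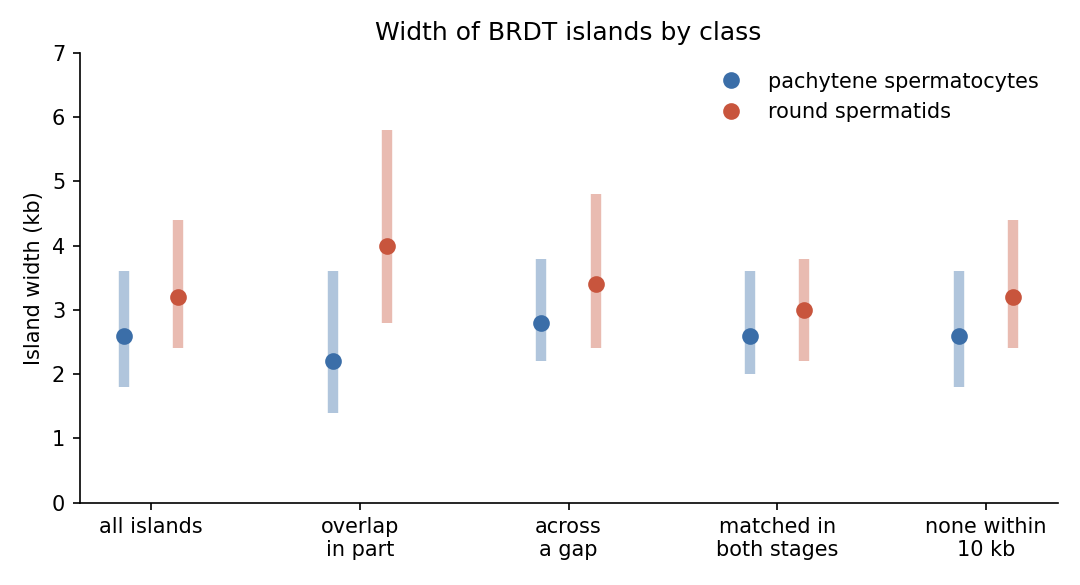
Width of BRDT islands in kb (vertical) by class (horizontal), with points for medians and bars from the lower to the upper quartile over the islands of 1 library per stage. Among islands that overlap in part, the medians are 2.2 kb in pachytene spermatocytes and 4.0 kb in round spermatids, the widest separation of the classes plotted. The rule asks for unequal widths in the nested pairs of this class.

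By class, the widths of the stages stood farthest apart among islands that overlapped in part. The rule asks for unequal widths in the nested pairs of this class, and round spermatid islands are wider over the whole list. Their part in this separation was not tested. The pachytene median was 2200 bp (quartiles 1400 and 3600 bp), against 4000 bp for round spermatids (quartiles 2800 and 5800 bp). Islands across a gap had medians of 2800 and 3400 bp, close to those of all islands in each list. Matched islands had medians of 2600 and 3000 bp. Of the width of partly overlapped islands, 56.8% was covered by the other stage in pachytene spermatocytes and 40.1% in round spermatids.

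Splitting, where 1 island of a stage met several of the other, was rare. Only 17 pachytene islands of the 942 with any overlap were met by 2 or more round spermatid islands, and 9 of these 17 were offset islands. In the other direction it was 11 round spermatid islands of 957, of which 7 were offset islands. Thus 332 of 341 partly overlapped pachytene islands (97.4%) and 349 of 356 round spermatid ones (98.0%) met exactly 1 island of the other stage. The pieces of a split island lay close together: 20 of the 26 gaps between round spermatid pieces and 10 of the 11 between pachytene pieces were 600 or 800 bp. The smallest gap between islands within either list is 600 bp, so most of these pieces were about as close as separate islands can be in these lists. When islands of a list with under 1000 bp between them were joined, the split islands went from 17 to 7 in the pachytene list and from 11 to 6 in the round spermatid list.

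The few splits included the 2 widest islands of the pachytene list. On chromosome 17, the pachytene island from 27017801 to 27078600 (60.8 kb) contained 7 round spermatid islands, which covered 67.8% of it. The pieces were 1800, 10200, 8200, 7000, 5600, 3000 and 5400 bp wide in order of position, with 600 to 1600 bp between them. The last of them ended at 27067200, so the final 11.4 kb of the pachytene island held no round spermatid island. A second pachytene island followed from 27082401 to 27095400 (13000 bp) and met a round spermatid island at each end, from 27082601 to 27085000 and from 27090401 to 27095600. The 5400 bp between these islands was the widest gap within any split island.

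On chromosome 9, the pachytene island from 67501801 to 67539000 (37.2 kb) contained 5 round spermatid islands of 8600, 2600, 3000, 1200 and 2600 bp, which covered 48.4% of it. The first 7.2 kb of the pachytene island held none. On chromosome 7, the pachytene island from 72972801 to 72985600 (12800 bp) met 3 round spermatid islands of 6400, 3200 and 1800 bp that lay between 72970201 and 72983000. Also on chromosome 7, pachytene islands from 63956601 to 63964000 and from 63964801 to 63969600 met round spermatid islands from 63952001 to 63958600 and from 63959201 to 63970600. Here each stage had 2 islands and the break fell at a different place, so the chain could be called split in either direction. Counting only groups without a matched pair, 10 groups past these 4 chains held 3 islands each. The widest of these 10 was the chromosome 17 group from 27082401 named above. The next widest of them lay on chromosome 9, where a pachytene island from 49240401 to 49245000 met round spermatid islands of 1400 and 5000 bp.

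**Figure D3:**
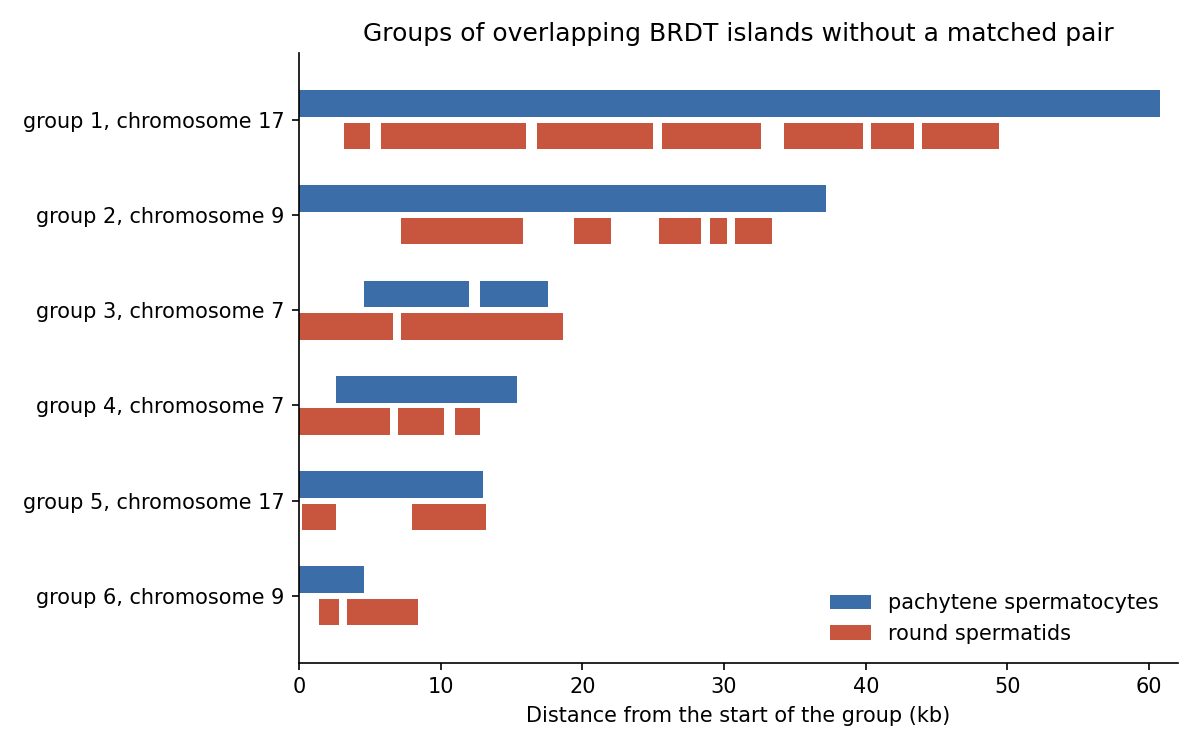
Islands of 6 groups of overlapping BRDT islands without a matched pair, the 4 that hold over 3 islands and the widest 2 of the 10 that hold 3, drawn to scale in kb from the start of each group (horizontal), with pachytene islands above round spermatid islands in each row. The widest group, on chromosome 17, has 1 pachytene island of 60.8 kb over 7 round spermatid islands, and the group on chromosome 7 in the third row has 2 islands in each stage with breaks at different places.

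Other wide offset islands met 1 island or none. On chromosome 6, a pachytene island from 127743601 to 127776000 (32.4 kb) met a round spermatid island only at its far end, from 127772801 to 127776200. The next pachytene island, from 127776801 to 127802000 (25.2 kb), stood 600 bp past that same round spermatid island and overlapped nothing. On chromosome 12 a pachytene island from 98782401 to 98809000 (26.6 kb) surrounded a round spermatid island from 98793201 to 98801600. The widest round spermatid offset island, on chromosome 1 from 90056601 to 90101600 (45.0 kb), stood 1000 bp from a pachytene island that was itself matched. The second widest, on chromosome 2 from 92171401 to 92187400 (16.0 kb), stood 2800 bp from a pachytene island of 1000 bp. Others surrounded a narrow pachytene island. On chromosome 6 the round spermatid island from 90562601 to 90576000 (13.4 kb) held a pachytene island of 1000 bp from 90570401. On chromosome 19 the one from 45830001 to 45843000 (13000 bp) held a pachytene island from 45835801 to 45837800. The fifth, on chromosome 19 from 5841401 to 5854000 (12.6 kb), was staggered with a pachytene island from 5840801 to 5846200.

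The longest staggered overlaps came from some of the same places. The longest, 5000 bp, joined the chromosome 17 island from 27082401 with the round spermatid island from 27090401. Overlaps of 4800 bp followed on chromosome 7 (the island from 63956601) and on chromosome 19 (the island from 5840801). On chromosome 7 the pachytene island from 72972801 shared 3800 bp with the first of its 3 partners. On chromosome 17 a pachytene island from 27115401 to 27120800 shared 3600 bp with a round spermatid island from 27117201 to 27127000.

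Islands across a gap were spread over the whole range from touching to the limit. The gap had a median of 4600 bp in both lists, with quartiles of 2250 and 7000 bp for pachytene islands and 2200 and 7000 bp for round spermatid islands. In the pachytene list 2 islands touched their neighbour with 0 bp between, and 30 of 378 (7.94%) had under 1000 bp. In the round spermatid list 4 touched and 36 of 432 (8.33%) had under 1000 bp. The nearest island of the other stage lay at the higher coordinate for 201 of 378 pachytene islands (53.2%, 95% interval 48.0 to 58.3). For round spermatid islands it did so in 204 of 432 (47.2%, 95% interval 42.4 to 52.1).

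Neighbours of the other stage were also met past the 10 kb limit, at somewhat lower rates. Of the pachytene islands without overlap, 8.43% had the nearest round spermatid island at under 10 kb. Of those still without a neighbour, 7.97% met one in the next 10 kb and 7.76% in the 10 kb after that. By 90 to under 100 kb the share was 6.72%. Round spermatid islands went from 9.39% to 7.63% and 6.93%, and to 5.62% by 90 to under 100 kb. The share was therefore higher within the limit than in each of these later steps in both lists. In the pachytene list the step at the limit was small (8.43% against 7.97%), and these shares were not tested. The step at the limit was larger in the round spermatid list than in the pachytene list. Just inside the limit, from 9000 bp, lay 36 pachytene and 38 round spermatid islands, and in the 1000 bp just outside lay 34 and 27.

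**Figure D4:**
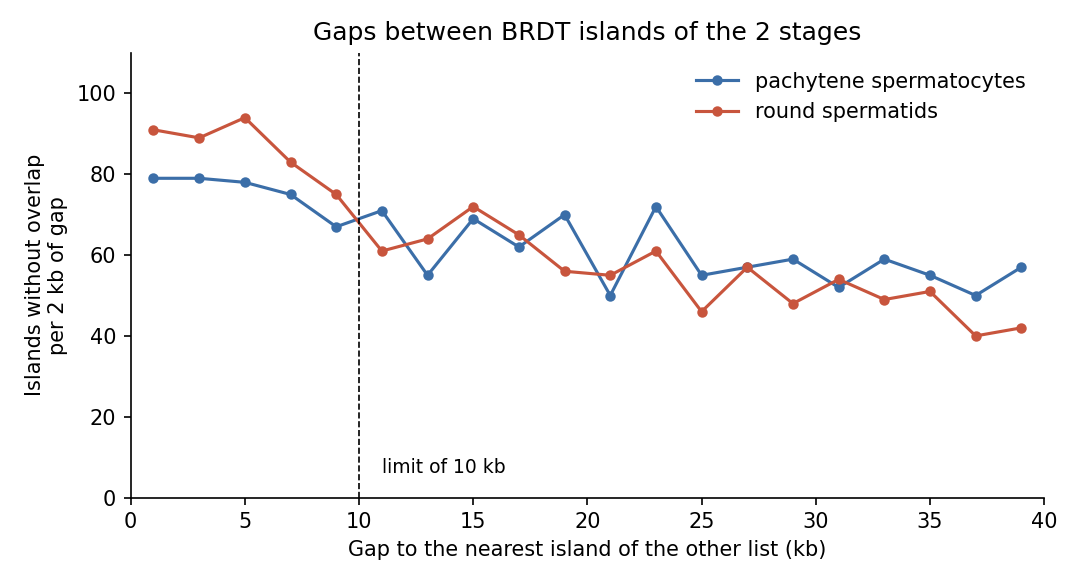
Number of BRDT islands without overlap (vertical) by the gap to the nearest island of the other list, in steps of 2 kb (horizontal), for each stage; the dashed line marks 10 kb. Between 8 to under 10 kb and 10 to under 12 kb, the round spermatid count goes from 75 to 61 and the pachytene count from 67 to 71.

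At the limit, the widest pair just inside lay on chromosome 12, with 9800 bp between the pachytene island of 3000 bp and the round spermatid island of 5400 bp. Just outside, a pair on chromosome 12 had 10000 bp between a round spermatid island from 56300001 to 56304200 and a pachytene island from 56314201 to 56317400. At the other extreme, 2 mutually nearest pairs touched. On chromosome 4 the round spermatid island ended at 41914400 and the pachytene island began at the next base pair. On chromosome 13 the pachytene island ended at 23766800 and the round spermatid island began at the next base pair. The next smallest gaps were 400 bp on chromosome 18, and 600 bp on chromosome 17 (pachytene island from 30185001 to 30192400) and on chromosome 6 (from 48596401 to 48601400).

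In 261 cases a pachytene and a round spermatid island, both across a gap, were each other's nearest. The round spermatid island was the wider in 159 of these pairs (60.9%, 95% interval 54.7 to 66.9) and lay at the higher coordinate in 133 (51.0%). Among the unmatched overlapping pairs it was the wider in 255 of 367 (69.5%), and among the matched pairs in 345 of 601 (57.4%). The widest of the 261 pairs, on chromosome 17, had a round spermatid island from 6386801 to 6398000 (11200 bp) and a pachytene island from 6398801 to 6407400 (8600 bp), 800 bp apart. On chromosome 2 the 16.0 kb island named above came next, and then a pachytene island from 25025401 to 25029800 beside a round spermatid island of 9600 bp, 2000 bp away. The remaining 2 of the 5 widest pairs lay on chromosome 10, with gaps of 2400 bp beside a pachytene island from 42537001 to 42540400 and of 4800 bp beside a round spermatid island of 8800 bp.

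Islands across a gap differed in the kind of neighbour they had. For 281 of 378 pachytene islands (74.3%) and 285 of 432 round spermatid islands (66.0%) the nearest island of the other stage was also one across a gap. Of these, 222 in each list formed a pair in which neither island had a further island of the other stage within 10 kb. The other 59 pachytene and 63 round spermatid islands belonged to neighbourhoods of 3 or more. For 59 pachytene islands (15.6%) and 97 round spermatid islands (22.5%) it was a matched island. For the remaining 38 and 50 it was an island that overlapped in part. In these last cases the stages met at that place, and the island across the gap was an extra one beside it.

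These sets differed in how often another island of the same list lay within 10 kb. The rule did not use this distance directly, but the division by neighbour is tied to it. Over all islands this held for 829 pachytene islands (15.3%) and 1173 round spermatid islands (21.1%). Where the nearest island of the other stage was matched, it held for 58 of 59 pachytene and 96 of 97 round spermatid islands across a gap. Where it overlapped in part, it held for 37 of 38 and 47 of 50. The island that met this neighbour is itself a same-list island nearby, so the construction of these groups sets most of such high shares. Where the neighbour was also across a gap, the shares were 12.1% in pachytene spermatocytes (34 of 281, 95% interval 8.53 to 16.5) and 17.5% in round spermatids (50 of 285, 95% interval 13.3 to 22.5), near those of the lists. Partly overlapped islands had shares of 21.1% (95% interval 16.9 to 25.8) and 27.0% (95% interval 22.4 to 31.9). This class includes pieces of split islands, which lie at most 5400 bp from the next piece and so count here through the way they were found. The shares without these pieces were not computed, so they cannot be set against those of the lists. Matched islands had 12.1% and 19.5%. Islands are not independent replicates, and these shares were not tested.

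**Figure D5:**
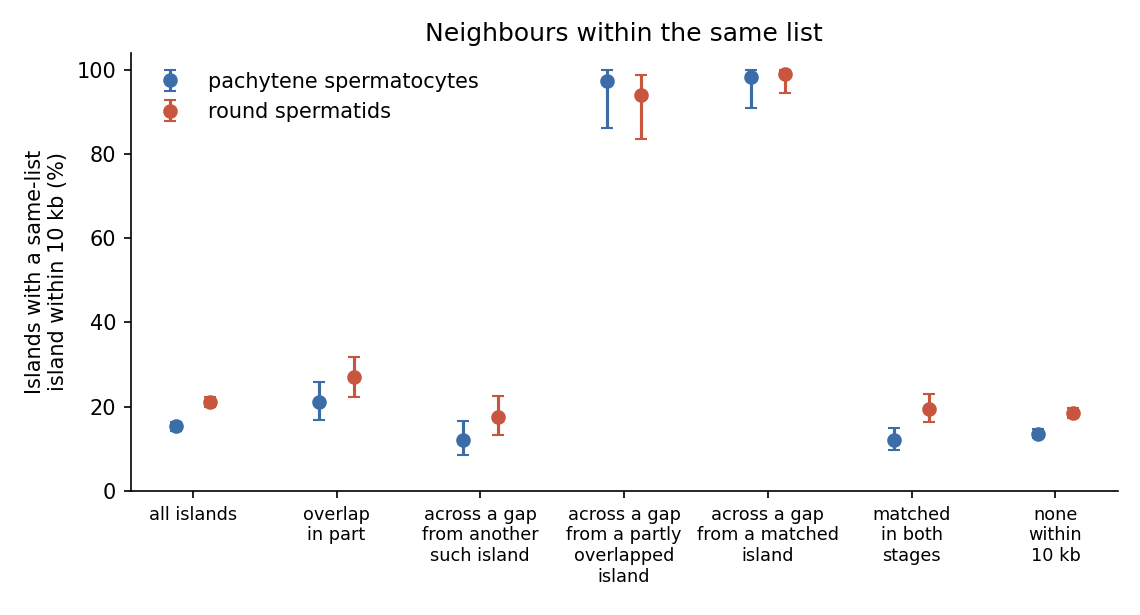
Percentage of BRDT islands with another island of the same list within 10 kb (vertical) for each class (horizontal), with exact 95% binomial intervals over islands of 1 library per stage. Islands across a gap from a matched or partly overlapped island lie at 94.0% or above, while those across a gap from another such island lie at 12.1% and 17.5%. The division by neighbour sets much of this difference by construction. The class that overlaps in part includes pieces of split islands, which lie close to each other and raise its share.

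Chained together by overlap or by a gap under 10 kb between the stages, the offset islands formed 722 neighbourhoods. A single overlapping pair made up 224 of these (31.0%) and a single pair across a gap 222 (30.7%), which together held 892 of the 1507 offset islands. The other 276 had 3 or more islands, 157 with a matched pair and 119 without, and their median was 3 islands. The median neighbourhood spanned 10200 bp.

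The largest neighbourhood, on chromosome 17 from 27017801 to 27127000, held 5 pachytene and 11 round spermatid islands over 109.2 kb. All but 3 of the 16 overlapped in part; there was 1 pachytene island across a gap, and 1 matched pair, whose pachytene island ran from 27102001 to 27108200. Next came chromosome 7 from 72970201 to 73020200 (50.0 kb), with 5 islands of each stage. Its second pachytene island, from 72986201 to 73001000 (14800 bp), held a single round spermatid island of 2200 bp from 72998601. The third, on chromosome 9 from 67496601 to 67543800, added a pachytene island on either side of the 37.2 kb island, both across a gap from its round spermatid pieces. A neighbourhood on chromosome 15 from 76337601 to 76366800 had 7 islands and none that overlapped in part. It held 1 matched pair with 5 islands across a gap around it. Since chaining ran only between the stages, adjacent neighbourhoods could be counted apart. On chromosome 1 this was so for those from 90034001 to 90101600 (67.6 kb) and from 90102401 to 90143200 (40.8 kb), with 6 islands each.

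Along the genome the offset islands were spread over all 19 autosomes. Of 1916 windows of 1 Mb with an island of either stage, 504 (26.3%) held an offset island and 142 held at least 4. The fullest windows were on chromosome 19 from 5 to 6 Mb, with 16 offset islands of 27, and on chromosome 17 from 27 to 28 Mb, with 16 of 24. Chromosome 10 from 80 to 81 Mb had 14 of 37, and chromosome 9 had 13 of 26 both from 46 to 47 Mb and from 108 to 109 Mb. In the chromosome 17 window 11 of the 16 were of round spermatids, while on chromosome 19 the stages had 9 pachytene and 7 round spermatid islands.

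The classes took different shares of the chromosomes. Partly overlapped islands ranged from 2.40% of the islands of both lists on chromosome 13 and 2.86% on chromosome 18 to 10.3% on chromosome 12. Islands across a gap ranged from 4.17% on chromosome 6 to 10.6% on chromosome 18 and 11.2% on chromosome 19. Chromosome 18 was thus near the bottom for one class and near the top for the other, with 10 islands overlapping in part and 37 across a gap. Chromosome 12 had 49 and 32, and its share across a gap was 6.72%, near the median of 7.03% over the autosomes. Across the 19 autosomes the share across a gap was higher where islands were denser (Spearman's rho 0.66 against islands per Mb), and the share of partial overlap less so (rho 0.48). Both are descriptions over 19 chromosomes, and the islands that set the density are the same that form the shares.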

How the data were processed

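BRDT ChIP-seq of 2 stages was used, 1 library each. The submitters' processing notes name Bowtie, SICER and the build mm8, without versions. The deposited lists are, per the file headers, SICER peaks, with a tag in the file names read as an FDR of 10%. Each list deposited by the authors has 3 columns (chromosome, start and end in bp), with no score. The sources used here give neither window and gap settings nor the use of IgG. All ends are multiples of 200 bp and all starts 1 above one, so positions were read as 1-based and inclusive.

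Chromosomes 1 to 19 were used. A gap is the number of base pairs between islands, and the minimum overlap was 1 bp. Classes were checked on simulated lists and with bedtools. Shares have exact Clopper-Pearson 95% intervals. No test was made. Scripts ran in Python 3.11.15 with pandas 2.3.3, scipy 1.17.1, numpy 2.4.6 and matplotlib 3.10.9. The members, the classes and the alternatives were chosen with earlier results of these data known. Regions were named by rule: the 6 overlap groups without a matched pair that held the most islands (ties by wider span), the 5 widest members of each list, the 5 nested pairs of most unequal width, the 5 longest staggered overlaps, the 5 closest and the 5 widest gapped pairs, the 5 fullest 1 Mb windows and the widest pairs at each limit. The 5 most unequal nested pairs are pieces of the split islands on chromosomes 17 and 9. The largest neighbourhoods, single chromosomes and the extra island on chromosome 7 were picked once their values were known. Alternatives changed the gap limit, the matching share, the minimum overlap, width, joining of islands, and X and Y.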

Additional observations from a re-analysis of the deposited data

How the results depend on the processing

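The counts follow the limits that define them. Of 108 recomputed values (12 results under 9 alternatives), 75 stayed within 1.5 times the reported count, or within 200 bp for the median gap. Requiring an overlap of 600 bp and adding X and Y moved none past this. Some of the 75 could not move, so the tally does not measure stability. The gap limit does not enter the overlap, nesting and split counts, and the matching share does not enter the gap and split counts. The tolerance is also wide, as it takes in a rise of the pachytene offset islands from 719 to 1076 with matching at 75%. With a gap limit of 5000 bp, 197 pachytene and 229 round spermatid islands stood across a gap (median gap 2400 bp), and with 20000 bp, 705 and 750 (median 8800 bp). With matching at 25% of both widths, 74 and 94 islands overlapped in part, in 97 unmatched pairs (50 nested, 47 staggered), and the pachytene offset islands numbered 452. At 75% it was 698 and 713 islands in 724 pairs. Among the widest islands only (2712 and 2779, in place of a stricter FDR), 224 (8.26%) and 234 (8.42%) were offset, of which 78 and 83 overlapped in part, in 85 pairs, and 146 and 151 stood across a gap, while 4 pachytene islands were split. Nested pairs then numbered 33 and staggered pairs 52, so nesting no longer prevailed; leaving out narrow islands removes inner islands by construction. Joining islands of a list under 1000 bp apart left 7 split pachytene islands, and under 5000 bp 4, with a median gap of 5400 bp. No replicate could be left out. No paired analysis was possible because each stage has 1 BRDT library. Depth is unknown, so an island or a break missing from a list may lie below the caller's threshold.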

Other observations

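The sex chromosomes lay outside the rule. By the same limits, X held 2 offset islands in each list, of 27 pachytene and 37 round spermatid islands, and they formed 2 overlapping pairs. One was staggered, with a pachytene island from 48215601 to 48218400 and a round spermatid island from 48216801 to 48220400. In the other, a pachytene island from 79740201 to 79741400 lay inside a round spermatid island from 79739001 to 79742200. A further 4 islands of each list on X were matched. On Y, the single pachytene island, from 1805801 to 1808600, stood across a gap from a round spermatid island that began at 1816601, and 22 of the 23 round spermatid islands there had no pachytene island within 10 kb.

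Joining islands of the same list hardly changed the share that was offset. With islands under 5000 bp apart joined, 13.9% of 5129 pachytene and 14.1% of 5079 round spermatid islands were offset, while matched pairs fell from 601 to 521. The classes moved in opposite directions, and their order was reversed. Islands that overlapped in part rose from 341 and 356 to 399 and 401, and those across a gap fell from 378 and 432 to 312 and 313.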
